A study of Caenorhabditis elegans with 4 samples.

Results

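EGL-27 belongs to the MTA proteins, subunits of NuRD-type chromatin remodelling complexes, and carries a zinc finger of the GATA kind. In Caenorhabditis elegans it is known for roles in cell polarity, Wnt signalling and larval patterning. Described here are weaker EGL-27 peaks that each of 4 ChIP-seq replicates located to within 200 bp, although they are not in the authors' final list. They number 193 of the 28043 nuclear peaks of the pooled list, or 0.708% of the 27241 nuclear peaks outside the final list.

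The study measured EGL-27 occupancy in whole larvae of the third larval stage (L3) of strain OP177, genotype unc-119(ed3) III; wgIs177, in which a transgene adds EGL-27 fused to GFP and FLAG at its C-terminus. The 4 samples are labelled as biological replicates 1 to 4 of this 1 group. Males and females were pooled, the age is given as unknown, the antibody is listed as egl-27, and chromatin was sheared by sonication. No wild-type or untagged sample and no ChIP of another protein was analysed here. The replicates were each compared with 1 shared control, whose part in their overlap was not tested. Every tissue of the larva contributes, and a site occupied in few cells and a site occupied weakly in many cannot be told apart.

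ChIP-seq sequences the DNA that comes down with a protein, and a peak is a stretch where those fragments pile up, with a summit as its central point. The pooled list comes from the 4 replicates analysed together. The irreproducible discovery rate (IDR) measures how alike peaks rank between replicates, and the list derived with it holds 814 peaks, 802 of them nuclear. These were the 814 peaks with the highest pooled score, so the list was a limit on that score. The 193 peaks were chosen by pooled score and by replicate summits: each is absent from the IDR list and has its pooled summit within 200 bp of a summit in each of the 4 replicate lists. Scores, ranks and summit distances are therefore given as descriptions, with no test. Position in the genome and DNA sequence were not used in the choice.

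The replicate lists held 30000, 6602, 19304 and 12990 peaks in replicates 1 to 4. The authors named them lists of peaks and background, so an entry in a list need not be a site of binding. The number of sequenced reads is unknown. Mitochondrial peaks were left out.

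Sequences around 7 of the summits show what DNA lies at these peaks. They are examples of a divergent promoter, another promoter, intergenic DNA, a snoRNA gene and motif matches, each the strongest of its kind among the windows eligible for printing. Each is 101 bases of the plus strand of the RefSeq genome in build ce11, centred on the summit, and all coordinates are ce11. Capitals mark matches, on either strand, to the GAGA repeat GAGAGAG, the GATA motif WGATAR (W is A or T, R is A or G), the E-box CACGTG, the AP-1 motif TGACTCA, the forkhead motif GTAAACA, the E2F-type motif TTTCGCG and the CRE core ACGTCA. A match describes the letters and is no evidence of a bound factor.
lec-4, 84 bp upstream, chrIII:3773360-3773460: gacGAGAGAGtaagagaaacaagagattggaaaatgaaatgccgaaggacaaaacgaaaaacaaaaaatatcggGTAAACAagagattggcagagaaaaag
C34B4.2, intergenic, chrV:13081270-13081370: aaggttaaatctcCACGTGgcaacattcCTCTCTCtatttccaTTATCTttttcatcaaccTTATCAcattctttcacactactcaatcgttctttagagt
lst-5 and lst-6, divergent promoters, chrII:7022675-7022775: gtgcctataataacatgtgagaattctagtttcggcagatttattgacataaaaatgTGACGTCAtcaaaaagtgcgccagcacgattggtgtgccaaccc
lin-15B, 959 bp upstream, chrX:15725114-15725214: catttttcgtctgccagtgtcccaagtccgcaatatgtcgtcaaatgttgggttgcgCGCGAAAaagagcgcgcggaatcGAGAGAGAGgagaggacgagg
egl-27, intron, chrII:6837323-6837423: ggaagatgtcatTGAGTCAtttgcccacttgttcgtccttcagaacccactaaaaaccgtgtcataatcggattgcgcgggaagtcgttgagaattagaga
cec-1, intergenic, chrIII:8425243-8425343: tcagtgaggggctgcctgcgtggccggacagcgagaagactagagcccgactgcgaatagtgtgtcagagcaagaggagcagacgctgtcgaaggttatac
tif-1A, beside a snoRNA gene, chrIII:4004324-4004424: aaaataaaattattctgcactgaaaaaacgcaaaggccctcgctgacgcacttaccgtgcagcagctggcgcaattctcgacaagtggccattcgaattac
The lec-4 window holds a GAGA repeat and a forkhead match, and the lin-15B window a GAGA repeat and an E2F-type match. The capitals of the lst-5 window are 2 overlapping matches to the CRE core, on opposite strands, and the egl-27 window holds an AP-1 match. The C34B4.2 window holds an E-box, a GAGA repeat and 2 GATA matches. The cec-1 and tif-1A windows hold none of the 7 motifs.

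Weaker peaks that recurred in every replicate were concentrated just below the IDR limit. The pooled list ran to rank 28056, and the 193 peaks ranked 815 to 27989 in it, with quartiles at 1085, 1499 and 2138. Of the 813 nuclear peaks of ranks 815 to 1628, 108 (13.3%) were found in all 4 replicates. The share was 5.41% (44 of 814) at ranks 1629 to 2442, 1.41% (23 of 1628) at ranks 2443 to 4070, 0.270% (11 of 4070) at ranks 4071 to 8140 and 0.0351% (7 of 19916) beyond. In the IDR list 42.3% of the nuclear peaks (339 of 802) were found in all 4 replicates.

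At the IDR limit the scores met without a step. The last IDR peak had a pooled score of 24.23 at rank 814 and was found in 3 replicates. The first peak outside the list, at rank 815 with a score of 24.22, was found in 4, and the first that was not found in all, at rank 817 with a score of 24.21, was found in 3. The median pooled score was 18.7 for the 193 peaks, against 31.1 for the nuclear IDR peaks and 6.83 for the other pooled peaks. The deposited −log10 q-value had reached its highest value, 2.22, at 152 of the 193 peaks (78.8%), at all 802 nuclear IDR peaks and at 5.37% of the 27048 other pooled peaks.

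**Figure D1:**
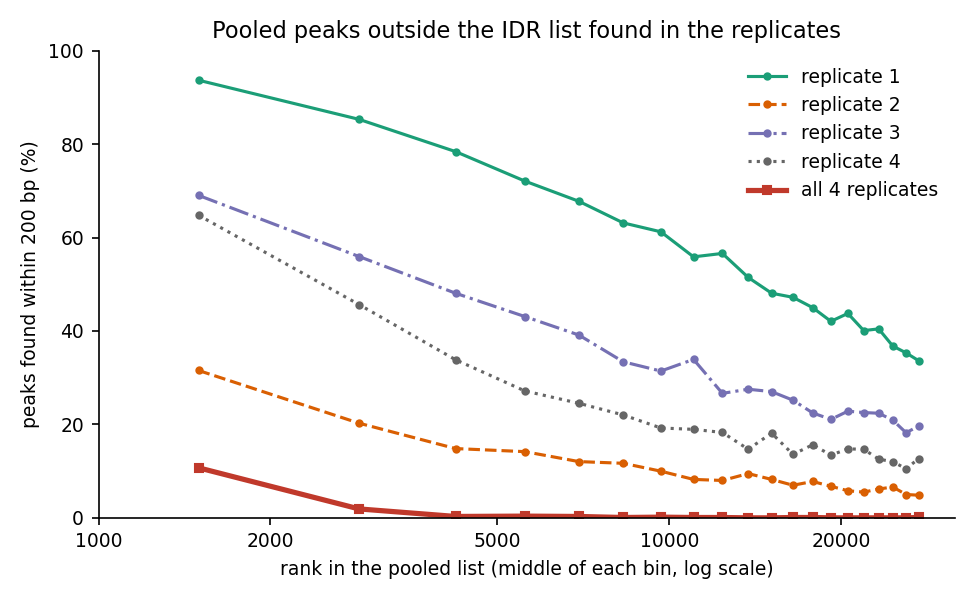
Share of nuclear pooled peaks outside the IDR list (y axis, percent) with a summit of a replicate within 200 bp, in 20 bins of pooled rank (x axis, log scale). Thin lines are single replicates and the thick line is all 4 together, which started at 10.7% in the first bin and was lower in every other bin, with replicate 2 the lowest of the 4 replicates throughout.

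Replicate 2, which has the shortest list, set the number of peaks more than any other. Of the 27241 nuclear peaks outside the IDR list, replicates 1 to 4 found 54.9%, 10.2%, 31.5% and 21.4%. Of the 1552 peaks found in 3 replicates, replicate 2 was the missing one at 890 (57.3%), replicate 4 at 343, replicate 3 at 217 and replicate 1 at 102. With 1 replicate not required, the count was 295 without replicate 1, 1083 without replicate 2, 410 without replicate 3 and 536 without replicate 4. The number 193 thus depends on which replicates are required. It also changed with list length, and with all lists held to their 6602 strongest peaks it was 52. Why replicate 2 found fewer of the peaks was not tested.

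The distance limit of 200 bp also passed through a dense part of the data. Just inside it were the peaks at F55G7.1 and pcn-1, with a largest summit distance of 200 bp, and at irld-18 with 198 bp. Just outside were peaks nearest to dlc-1 and wdr-23, at 201 bp, and to nhr-31, at 202 bp. Within 10 bp of the limit 23 peaks lay inside and 27 outside. A limit of 100 bp kept 60 peaks, and a limit of 500 bp gave 702.

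In the replicates themselves the 193 peaks were of middling strength. Their median rank was 5984, 2735, 3832 and 2913 in replicates 1 to 4, which is 19.9%, 41.4%, 19.9% and 22.4% of each list (25.9% ± 10.4, SD, n = 4). The 339 IDR peaks found in all 4 had median ranks of 395, 736, 583 and 505 (4.84% ± 4.34 of the list). Among the 814 strongest peaks of replicates 1 to 4 were 11, 39, 35 and 28 of the 193 peaks, 14.6% ± 6.41 (SD, n = 4), against 227, 173, 184 and 202 of the 339 IDR peaks, 58.0% ± 6.96. The ranges of these shares over replicates did not overlap between the sets, and the pooled score that separates the sets is itself made from these replicates.

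**Figure D2:**
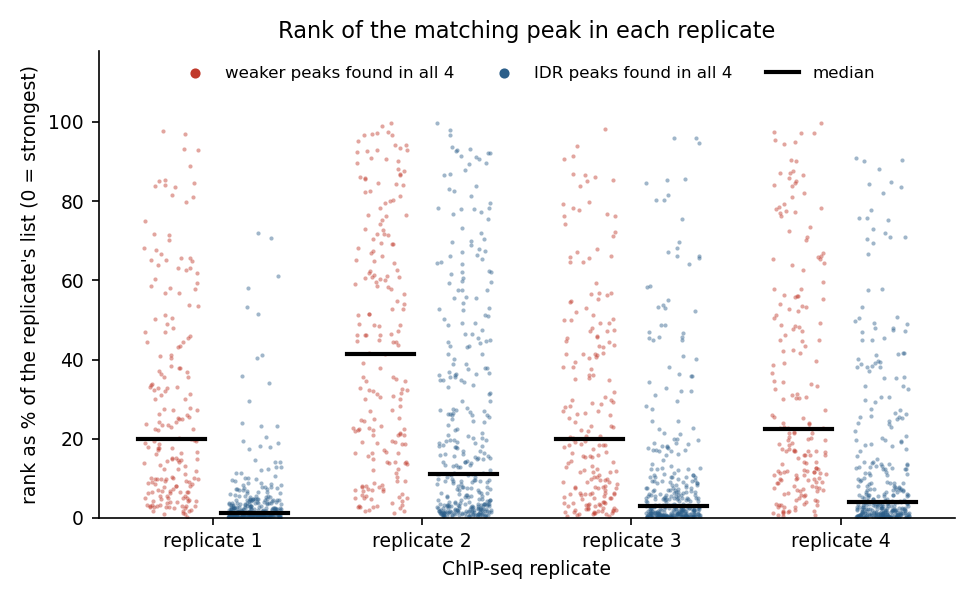
Rank of the matching peak as a percent of each replicate's list (y axis, 0 is the strongest), for the 193 weaker peaks on the left and the 339 IDR peaks on the right of each replicate. Points are peaks and bars are medians, and the median of the 193 peaks was higher, that is weaker, in each of the 4 replicates.

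Few of the 193 peaks were strong in several replicates at once. Counting a peak as strong in a replicate when it was among its 814 strongest, 98 of the 193 were strong in none, 78 in 1, 16 in 2, 1 in 3 and none in all 4. The peak strong in 3 replicates was intergenic, 2901 bp away from where fos-1 begins (chrV:6000515-6000884), which encodes an AP-1 factor of the FOS family. It ranked 27, 369 and 559 in replicates 1 to 3 and 10039 in replicate 4, and its pooled summit lay 200 bp from that of an IDR peak. In 3 of the replicates its matching summit also lay within 200 bp of that IDR summit. The replicate peaks ranked 27 and 369 in replicates 1 and 2 also matched that IDR peak, so these ranks are not its own alone. Within the central window of the weaker peak was the AP-1 motif TGACTCA.

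Within the first 25% of every list were 12 of the 193 peaks (6.22%), against 152 of the 339 IDR peaks (44.8%). The one whose weakest replicate rank was the strongest, singled out after the values were seen, lay in an intron of mdl-1 (chrX:6749264-6749633), which encodes a Mad-like bHLH factor. It ranked 2824, 107, 1173 and 599 in replicates 1 to 4, within the first 9.41% of each list, although only 1505 in the pooled list. Others were at snb-1, at T09F3.2, at the shared promoter of col-38 and rpl-5, and at sop-2, which encodes a Polycomb-like repressor of Hox genes. The sop-2 peak (chrII:12339163-12339532) lay 596 bp upstream and ranked 3041, 448, 695 and 2611. Another of the 12, nearest to irld-18, ranked 117 and 113 in replicates 2 and 3 through replicate peaks that also matched an IDR peak.

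Replicate summits met less closely at these peaks than at IDR peaks. The median distance from the pooled summit was 39, 61, 52 and 52 bp in replicates 1 to 4 (51.0 ± 9.06 bp, SD, n = 4), against 21, 35, 31 and 31 bp at the 339 IDR peaks (29.5 ± 5.97 bp). Over the 4 replicates the largest distance had a median of 133 bp at the 193 peaks and 79 bp at the IDR peaks. All 4 summits lay within 50 bp at 14 peaks (7.25%), against 84 IDR peaks (24.8%), and within 100 bp at 60 (31.1%), against 230 (67.8%).

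**Figure D3:**
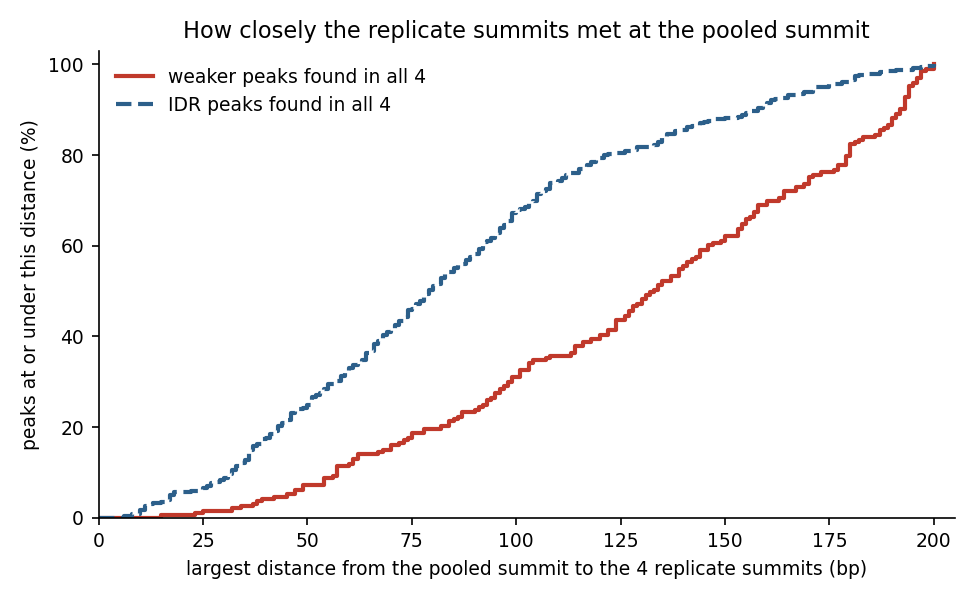
Cumulative share of peaks (y axis, percent) by the largest of the 4 distances between the pooled summit and the replicate summits (x axis, bp). The 193 weaker peaks, with a median of 133 bp, run to the right of the 339 IDR peaks, with a median of 79 bp.

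The weaker the peak, the closer it came to the distance limit. The largest distance had a median of 107.5 bp at ranks 815 to 1628, 134.5 bp at ranks 1629 to 2442, 170 bp at ranks 2443 to 4070, 179 bp at ranks 4071 to 8140 and 180 bp beyond. At the 7 peaks of the last group 17.9% of the single distances were within 50 bp, against 54.4% at ranks 815 to 1628. The 5 weakest lay in a coding exon of F17C11.4 (rank 10429), 606 bp upstream of gcy-11 (11776), a receptor-type guanylyl cyclase gene, 437 bp upstream of pcn-1 (16666), the gene of the replication clamp PCNA, in an intron of sea-2 (18044) and 1658 bp from the 5′ end of mtrr-1 (27989), a methionine synthase reductase gene.

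A few of the 193 peaks stood next to an IDR peak. At 13 the pooled summit lay within 500 bp of an IDR summit, in each case at 199 to 215 bp, and 199 bp was the smallest gap between any pooled summits. At all 13 at least 1 of the replicate summits also lay within 200 bp of the IDR summit, so the same replicate peak could count for both. At fos-1, irld-18, D2023.3, F31F7.1 and Y39E4B.6, for example, the same replicate peak did count for both in at least 1 replicate. Of the 90 peaks outside the IDR list at that range of distances, 13 (14.4%) were found in all 4 replicates, against 180 of 27109 (0.664%) beyond 500 bp. They included 4 of the 18 peaks ranked beyond 4070, namely those nearest to tps-1 (7661), W06H8.6 (9120), pcn-1 and mtrr-1. The other 180 peaks had no such summit. Over all 193 the median distance to the nearest IDR summit was 22953 bp.

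**Figure D4:**
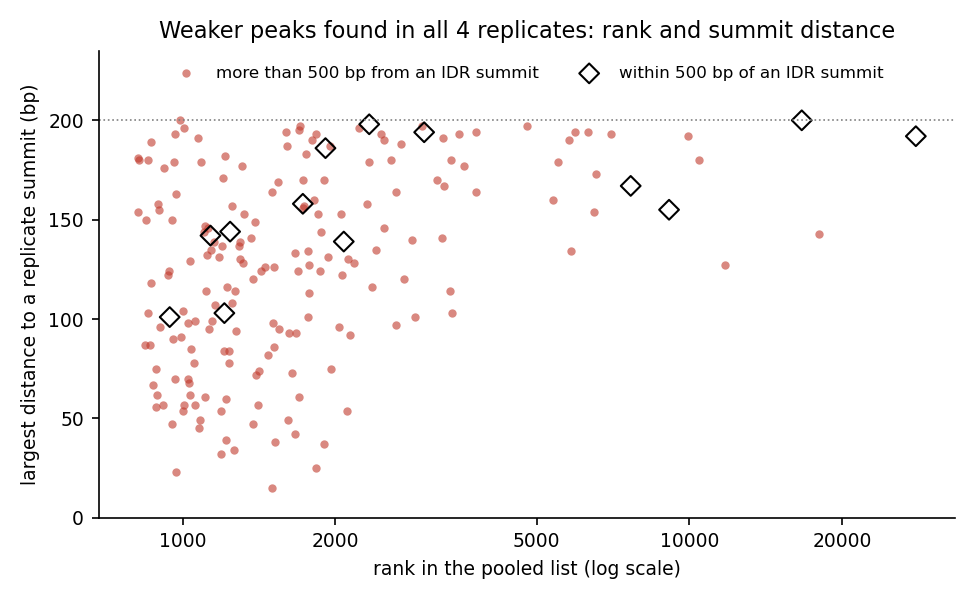
Rank in the pooled list (x axis, log scale) and largest distance to a replicate summit (y axis, bp) of the 193 weaker peaks. Diamonds are the 13 peaks within 500 bp of an IDR summit, and the dotted line is the 200 bp limit, which the points approach at weaker ranks.

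Promoters held a share of these peaks that did not differ from that of other pooled peaks of like rank beyond counting error. The promoter window of a protein-coding gene covered 1000 bp before and 200 bp after its annotated 5′ end. Such windows held 79 of the 193 summits, 40.9% (95% Clopper-Pearson interval 33.9 to 48.2), against 48.6% of nuclear IDR peaks and 41.5% of other pooled peaks of like rank. For the last value, the peaks outside the IDR list were put in 20 bins of pooled rank and weighted to the number of the 193 peaks in each. The first bin, ranks 815 to 2178, held 146 of the 193, so like rank is a coarse match there. The difference was -0.52 percentage points from peaks of like rank (95% interval -7.55 to 6.84) and -7.70 from IDR peaks (-15.2 to 0.149). Intervals here cover counting error over peaks, which are not replicates of the experiment. Of the 4 counts with 1 replicate not required, the promoter share was 37.9% to 43.7%. Without the 13 peaks next to an IDR peak it was 42.2%, and the difference from like rank was 0.503 percentage points. That difference was -9.75 (-21.2 to 3.98) with replicate lists of equal length, and 3.90, with an interval of 0.105 to 7.78 that lacked 0, when summits within 500 bp counted as found.

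Within promoters the 79 summits lay at a median of 214 bp upstream of the nearest protein-coding 5′ end. The median was 227 bp for IDR peaks and 214 bp for other pooled peaks of any rank. Downstream of that end were 7 of the 79 (8.86%), against 5.38% of IDR promoter peaks and 22.3% of other pooled promoter peaks. Of the 7, 1 lay 350 bp downstream of the 5′ end of sec-61.A but in the window of rps-18. No downstream share at like rank was computed. Divergent promoters, where the windows of genes on opposite strands meet, were less frequent than in the IDR list. They held 13 of the 193 peaks (6.74%), against 13.8% of the IDR peaks, and the interval of that difference lacked 0. The share at like rank was 8.60%, and the interval of that difference (-4.93 to 2.73 percentage points) held 0.

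The 13 divergent promoters, a group described after its values were seen, ranked 867 to 2869 in the pooled list. Besides lst-5 and lst-6 they include the pair rsp-1 and rsp-2 (chrII:11453012-11453381), both genes of SR splicing factors, with the summit 165 bp from rsp-1 and 242 bp from rsp-2. That peak ranked 13361, 307, 2707 and 1179 in replicates 1 to 4, high in replicate 2 alone. The pair jmjd-4 and mev-1 (chrIII:10333889-10334258), of which mev-1 encodes a subunit of succinate dehydrogenase, had the weakest of the 13 peaks. It ranked 4466, 3211, 16490 and 7265, among the first 814 in none. Between lev-9 and mom-1 (chrX:6292100-6292469) the peak ranked 15093, 4647, 6976 and 2788 and also lay beside a tRNA gene, so it cannot be given to a single gene.

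Outside promoter windows, 61 peaks (31.6%) were intergenic, 45 (23.3%) lay in introns, 6 (3.11%) in coding exons and 2 in exons outside coding sequence. At like rank these shares were 26.9%, 24.6%, 4.62% and 2.38%. Coding exons held 1.12% of IDR peaks, and the interval of the difference from the 193 peaks, 0.0363 to 5.53 percentage points, lacked 0. The 97 peaks with the higher pooled score had 1 summit in a coding exon and the 96 others had 5. The 6 were in exons of or nearest to col-176, ugt-39, C18B2.5, cpz-1, W06H8.6 and F17C11.4, and cpz-1 and W06H8.6 were among the peaks next to an IDR peak.

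Chromosomes carried 37, 33, 28, 25, 34 and 36 of the 193 peaks on I, II, III, IV, V and X. Chromosome I held 19.2%, against 13.3% of IDR peaks, and X held 18.7%, against 25.9% of IDR peaks, and both intervals of difference lacked 0. The shares of peaks of like rank were 14.8% on I and 22.2% on X, and neither interval lacked 0 there. Among the stronger 97 peaks 14 were on X, and among the weaker 96 it was 22.

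Genes of small non-coding RNAs stood beside some of these summits. A tRNA gene lay within 200 bp of 16 summits (8.29%), against 7.98% of IDR summits and 5.28% at like rank, a difference from like rank of 3.01 percentage points (95% interval -0.302 to 7.85). They were all among ranks 1027 to 3180. Introns of protein-coding genes held 7 of the 16, intergenic DNA 6 and promoter windows 2, and 8 of the 16 were on X. RNA polymerase III transcribes tRNA genes. Examples, named after the values were seen, are peaks beside tRNA genes in an intron of snx-17 (chrX:13121055-13121424), which ranked 828, 985, 14351 and 3936 in replicates 1 to 4, and in intergenic DNA near C53C7.3 (chrX:13046307-13046676), which ranked 1921, 2113, 199 and 895.

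The snoRNA genes, whose products guide the modification of other RNAs, lay within 200 bp of 9 summits, 4.66%, against 4.61% of IDR summits and 1.86% at like rank. That difference from like rank was 2.80 percentage points (95% interval 0.485 to 6.80), and the interval was 1 of 2 among the 33 features compared that lacked 0. About 1 in 20 such intervals lacks 0 from counting error alone. Set against the next weaker peak for each of the 193, all 33 intervals held 0. There the snoRNA difference was 1.55 percentage points (-2.58 to 5.85). From like rank it was 1.03, 1.14 and 1.19 without the requirement for replicate 2, 3 or 4, and the interval without replicate 3 held 0. Its direction turned, to -0.400, with all replicate lists held to the length of the shortest. The strongest, at pooled rank 816, was in an intron of haf-9 beside the snoRNA gene ZK484.9 (chrI:6082619-6082988), which ranked 5835, 2162, 10041 and 152 in replicates 1 to 4. Those at pdl-1 and wht-2 were in introns, and that at tif-1A, the gene of an RNA polymerase I initiation factor, lay 260 bp upstream of it (sequence above). Of the remaining classes, ncRNA genes lay near 38 summits (19.7%, against 14.8% at like rank), and antisense RNA genes near 0 of 193, which allows a share of up to 1.55%, against 42 of all 28043 nuclear pooled peaks. No rRNA gene lay near any of the 28043.

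The median GC content at the summits was below that of IDR peaks and near that of the next weaker peaks. Over the 101 bases at the summit it was 44.6% (quartiles 38.6 and 51.5). It was 47.5% at IDR peaks, 43.6% at the next weaker peaks (quartiles 37.6 and 48.5) and 37.6% at all other pooled peaks. No interval was computed for these differences. The 97 stronger peaks had a median of 46.5% and the 96 weaker ones 42.6%. In these windows 11 motifs were searched on both strands, and a window counted once however many matches it held. Every summit in this set stood at the middle of a 370 bp interval, so it is a coarse guide to the place of a motif.

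The E-box CACGTG, the site type of bHLH factors, was within 50 bp of 15 summits (7.77%), against 6.11% of IDR summits, 4.30% at like rank and 2.51% of all nuclear pooled peaks. The difference from like rank was 3.47 percentage points (95% interval 0.300 to 8.20), the other interval of the 33 that lacked 0. It was 4.15 percentage points from the next weaker peaks, with an interval of -0.598 to 9.16 that held 0, and 0.164, 1.37 and 1.81 without the requirement for replicate 2, 3 or 4, where the intervals without replicate 2 and without replicate 3 held 0. Of the 15 peaks, 10 ranked at or above the median of the 193. They include the peak 692 bp upstream of mxl-3, which itself encodes a Max-like bHLH protein (chrX:13351311-13351680), the intergenic peak at C34B4.2 and the peak upstream of T09F3.2 and T09F3.7.

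GAGAGAG was near 28 summits (14.5%), against 13.8% of IDR summits, 10.7% at like rank and 3.90% of all nuclear pooled peaks. The difference from like rank, 3.83 percentage points, had an interval of -0.692 to 9.65. WGATAR, the site type of GATA zinc fingers such as that of EGL-27, was near 50 (25.9%), against 20.2% of IDR summits, 27.2% at like rank and 21.5% of all nuclear pooled peaks. Its interval of difference from like rank was -7.28 to 5.59 percentage points.

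The forkhead motif GTAAACA was near 9 summits (4.66%), against 1.37% of IDR summits, an interval of difference that lacked 0, and 2.43% at like rank, an interval of -0.0869 to 6.24 percentage points that held 0. Of the 9, 1 lay 414 bp upstream of daf-16, the gene of the forkhead factor of insulin signalling, and others 84 bp upstream of lec-4 and 319 bp upstream of lec-6, both galectin genes. TGACTCA was near 6 (3.11%), against 0.748% of IDR summits, and again the interval of that difference lacked 0, while the share at like rank was 1.51%. All nuclear pooled peaks held GTAAACA at 1.46% and TGACTCA at 1.35%. TTTCGCG, the type of site that E2F factors bind, was near 8 (4.15%, against 2.24% of IDR summits, 2.13% at like rank and 1.40% of all), 6 of them in promoter windows, among them those of rpn-9, rsa-2 and rpl-1. ACGTCA was near 10 summits (5.18%), against 5.86% of IDR summits, 6.13% at like rank and 4.10% of all nuclear pooled peaks. CCAAT was near 32 (16.6%), against 14.96%, 16.02% and 19.6% in the same order of sets, and TATAAA near 10 (5.18%), against 4.61%, 6.79% and 9.26%. The splice acceptor type TTTCAG was near 10 (5.18%), against 4.74%, 7.57% and 15.95%, and AAAAAAAA near 7 (3.63%), against 3.99%, 6.19% and 10.4%. The intervals of difference of these 5 motifs held 0 both against IDR peaks and at like rank. Against IDR peaks 6 of the 33 intervals lacked 0: coding exons, divergent promoters, chromosomes I and X, TGACTCA and GTAAACA. Against the 339 IDR peaks found in all 4 replicates 3 did: divergent promoters, chromosome X and GTAAACA.

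**Figure D5:**
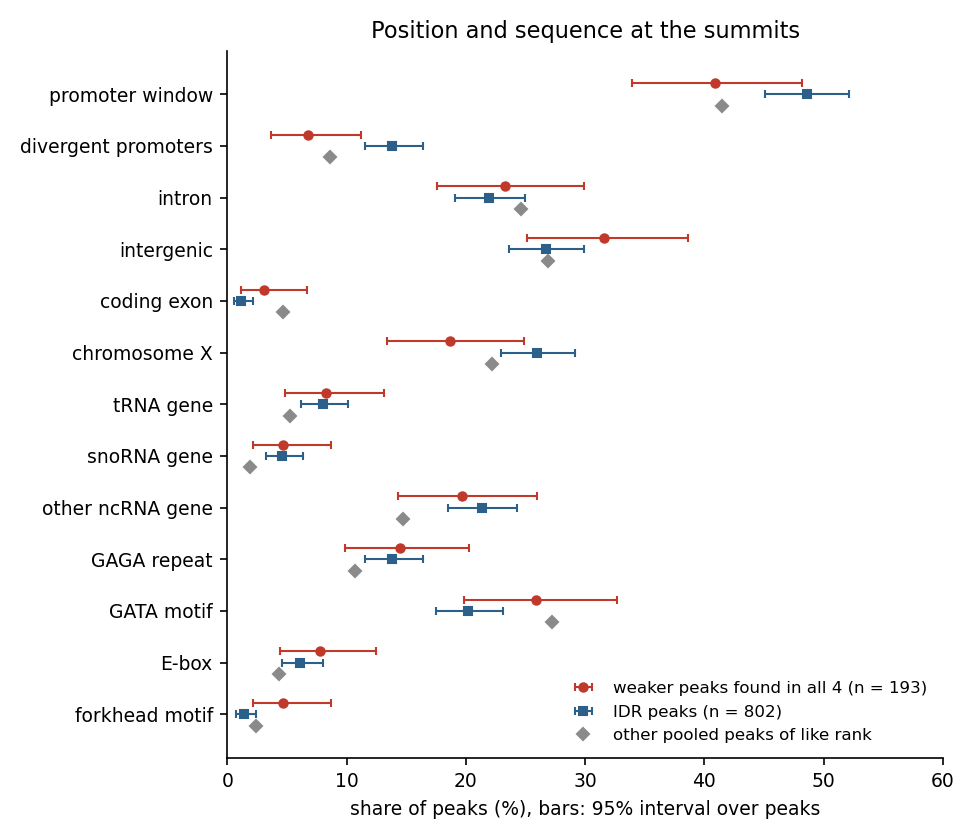
Share of peaks (x axis, percent) by position of the summit, neighbouring non-coding gene and motif. Circles are the 193 weaker peaks, squares the 802 nuclear IDR peaks, both with 95% intervals over peaks, and diamonds the other pooled peaks weighted to like rank, which lie inside the interval of the 193 peaks for every feature drawn except snoRNA genes and the E-box.

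The strongest of the 193 peaks lay at genes of varied roles. At lec-4 (chrIII:3773225-3773594), 84 bp upstream, the peak was at pooled rank 844 and ranked 866, 3574, 745 and 7516 in replicates 1 to 4. At the strongest divergent promoter, between lst-5 and lst-6 (chrII:7022540-7022909), lateral signalling targets of the Notch pathway, the ranks were 735, 1375, 16750 and 2430. The peak 390 bp upstream of snb-1 (chrV:6656706-6657075), the gene of the synaptic vesicle protein synaptobrevin, ranked 5660, 211, 169 and 965. Its rank was in the first 814 in replicates 2 and 3 and beyond it in replicates 1 and 4.

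The peak between vha-1, a proton pump subunit gene, and sqv-3, a glycosyltransferase gene of vulval morphogenesis (chrIII:9780640-9781009), ranked 3940, 4564, 1728 and 2226. It was among the first 814 in none of the replicates. The first of all 193 was intergenic, 1040 bp from the 5′ end of cec-1, a chromodomain protein gene (chrIII:8425108-8425477). It ranked 15111, 2346, 260 and 1129, high in replicate 3 and low in replicate 1. The rest of the first 15 were intergenic peaks nearest to C34B4.2, asp-13, gpdh-3 and gpx-8, promoter peaks at T09F3.2, mxl-3 and mstr-1, and intronic peaks at haf-9, anc-1 and D2030.2. The anc-1 gene encodes a protein that anchors nuclei to the cytoskeleton.

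EGL-27's own gene was the place with most of these peaks. It was the nearest gene of 5 of them, while 8 genes had 2 and 172 had 1. The gene with 1000 bp upstream (gene at chrII:6835008-6847908) held 23 pooled summits, 5 of them IDR peaks and 4 from the 193. They lay 170 bp upstream of its 5′ end (rank 1731) and in introns (ranks 957, 1454 and 3788). The intronic peaks of ranks 957 and 3788 had the same nearest peaks in replicates 2 and 3, ranked 471 and 3551, so they are not independent finds. At T09B4.5 another pair shared a peak of replicate 2 and a peak of replicate 3, and no other pair among the 193 did. The strain carries egl-27 also on the transgene, of unstated copy number, and its part in the peaks at this gene was not tested.

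Genes with 1 of these peaks at a promoter were few, over all genes and within gene lists. Of 7489 protein-coding genes with any nuclear pooled summit in the promoter window, 94 (1.26%) had 1 of the 193 peaks there and 512 had an IDR peak, and 4 genes, mstr-1, F17C11.26, F31F7.1 and pcn-1, had both. The gene lists below were chosen with earlier results of these data known, so their counts are descriptions. Each is counted over its genes with any nuclear pooled summit in the promoter window, such as 70 of 83 ribosomal protein genes.

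Of 70 cytosolic ribosomal protein genes with such a summit, 4 had 1 of the 193 peaks (5.71%) and 25 had an IDR peak. They were rpl-5 (rank 915, on a promoter shared with the collagen gene col-38), rpl-41.2 (1413), rps-18 (1705) and rpl-1 (1765). The peak at rpl-5 and col-38 (chrII:8569302-8569671) ranked 2977, 187, 986 and 2186 in replicates 1 to 4. It was 440 bp upstream of rpl-5 and 399 bp upstream of col-38, so it cannot be given to either gene alone. That at rps-18 lay 765 bp upstream of it.

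Chromatin and signalling genes had single peaks. In the NuRD and MEC list 1 of 8 genes had one, and in the GATA factor list 1 of 4, in both cases egl-27 itself. In the DREAM and synMuv B list, whose products repress germline genes and vulval fates in body cells, 1 of 8 had one, lin-15B (chrX:15724979-15725348), at rank 953 and 1197, 2742, 18111 and 406 in replicates 1 to 4. In the insulin, TOR and ageing list 1 of 13 had one, daf-16 (chrI:10749899-10750268), at rank 1297 and 915, 3491, 5098 and 516 in the replicates. Among nuclear hormone receptors 2 of 114 had one, nhr-104 (964) and nhr-57 (1114), and among proteasome genes 1 of 25, rpn-9 (1001) of the regulatory particle. Of 75 collagen genes 1 (col-38) and of 8 neuronal genes 1 (snb-1) had one.

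No gene of 12 other lists had 1 of the 193 peaks in its promoter window. The numbers of genes again count only those with a pooled summit in the window. Among these were 21 Hox and Wnt genes, 8 heterochronic genes, 21 chaperone genes and 31 respiratory chain genes, of which 2, 3, 11 and 7 had an IDR peak. Histones (25), homeobox and bHLH factors (28), Rab GTPases (12), F-box genes (68), seam and epidermal genes (8) and markers of muscle (11), intestine (13) and germline (9) were the others. The lists are short and do not exhaust a pathway. Outside them, seen after the values were known, some genes of like kinds did have such a peak. These include mom-1, a gene of Wnt secretion, and asb-2 and mev-1 of mitochondrial energy metabolism. Others are mxl-3 of the bHLH factors, and sti-1 and pfd-3 of protein folding. The windows cover promoters alone, and lin-14, a heterochronic gene, was the nearest gene of 2 of the 193 peaks outside its window.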

How the data were processed

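EGL-27 ChIP-seq peak lists of 4 replicates, of the pooled replicates and of the IDR procedure were used. Per the labels' README texts, the authors called each replicate list on that replicate's alignment with a control alignment shared by all, called the pooled list on the 4 alignments together, and derived the IDR list from these. The names of the aligner and caller, the filters and the IDR limit were not given in the sources used here. Every deposited score, a signal value set by the authors on an unstated scale, ranked peaks within 1 list here. The deposited −log10 q-value was described but ranked nothing, and the deposited −log10 p-value was not used. Library depth is unknown, and the length of a list can follow it.

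All values are on ce11, which is WBcel235. Gene models came from Ensembl release 115 and sequence from RefSeq. Printed sequences exclude windows over annotated exons and all of chromosome I, which leaves 113 of the 193 peaks. The haf-9 peak on that chromosome outranks the C34B4.2 and tif-1A peaks shown for CACGTG and for snoRNA genes. A summit was put in a promoter window, else in a coding exon, another exon, an intron or intergenic DNA. Shares carry 95% Clopper-Pearson intervals. Differences from IDR peaks carry Newcombe intervals, and differences from peaks of like rank carry Wilson limits combined over 20 rank bins. The limit for a count of 0 is 3 of the total. These cover counting error over peaks only, and no p-value was computed. In simulated data with peaks set well apart, the steps found the planted peaks. They also recovered, on average within a set tolerance, a planted difference of a frequent feature. Closely spaced peaks and features as rare as snoRNA genes or CACGTG were not simulated. Python 3.11.15, numpy 2.4.6, scipy 1.17.1, pandas 2.3.3 and matplotlib 3.10.9 were used.

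The 193 peaks, 21 gene lists and 11 motifs were chosen with earlier results of these data known. Of the gene list names, egr-1, elt-5, lin-4, let-7, bus-8, daf-21 and opt-2 matched no annotated gene. Named by rule were the 15 strongest and 5 weakest of the 193 peaks, those strong in all 4 replicates (none), those nearest to each limit and up to 4 per gene list. Other genes were named after their values were seen. Alternatives changed the summit distance, the way of matching, the replicates required, the list lengths, neighbours of IDR peaks, the promoter window, the rank bins, the motif window and the build.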

Additional observations from a re-analysis of the deposited data

Results flagged for a closer look

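The median rank of the 193 peaks as a share of the list was 41.4% in replicate 2, apart from 19.9%, 19.9% and 22.4% in replicates 1, 3 and 4. The gap from replicate 2 to the nearest of the others was 0.881 of the whole range of the 4 values. Among the 12 groups of 4 replicate values checked, this gap was the largest relative to its range. The ranks come from the replicate lists used to choose the peaks, so the gap is a description and no test. Replicate 2 has the shortest list, with 6602 peaks, and its share is its median rank divided by that length. The median rank itself, 2735, was the lowest of the 4. For median ranks the value furthest from the rest was 5984 in replicate 1, with a gap of 0.662 of the range. The part of list length in the 41.4% was not tested.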

How the results depend on the processing

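Of 101 recomputed values, 76 stayed within the spread of the reported value or, for a difference, kept its interval on the same side of 0 or across it. Counts of peaks, which have no spread, were given a set margin instead. The 76 include values that could not change: counting peaks within 200 bp once altered nothing, as the smallest gap was 211 bp. The number of peaks moved most. It was 535 with overlapping intervals in place of summit distance, 60 within 100 bp and 702 within 500 bp. With all replicate lists at the length of the shortest it was 52, and with 1 replicate not required 295 to 1083. The 97 for the stronger peaks alone was fixed by the split. On ce10, where the IDR list held 712 peaks against 814 on ce11, the number was 221. The promoter share was 29.5% with a window of 500 bp upstream and 100 bp downstream and 32.7% with lists of equal length. Its difference from like rank was -9.75 percentage points with lists of equal length (interval -21.2 to 3.98) and 3.90 within 500 bp (0.105 to 7.78, which lacked 0). The snoRNA difference turned to -0.400 with lists of equal length. Its interval held 0 also against the next weaker peaks, for the stronger peaks, within 100 bp and without replicate 3. The CACGTG interval held 0 with overlapping intervals, against the next weaker peaks, with lists of equal length, within 100 or 500 bp and without replicate 2 or 3. With 1 replicate not required the differences were 1.03 to 2.55 (snoRNA) and 0.164 to 3.35 (CACGTG) percentage points. The causes were not tested. The settings for these 2 differences were added after the data were seen. Shares at tRNA genes, on X and with GAGAGAG moved by less than their intervals in every setting run. Depth is unknown, so what it limits cannot be given.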
